A study of Mus musculus with 6 samples.

Results

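Genes of cholesterol synthesis, fatty acid synthesis and sterol transport were examined in mouse retinal cells that had received the transcription factor Sox11. The set was a list of 33 named genes, chosen by their function, and 31 of them had values in the deposited table, in 49 transcript rows out of 26691. They comprised 16 enzymes of cholesterol synthesis (7 of the mevalonate arm and 9 of the sterol arm), 9 enzymes of fatty acid synthesis, elongation and desaturation, 4 genes of sterol transport and 2 regulators. Dhcr7, the last reductase of the pathway, and Srebf1, a regulator of fatty acid genes, had no row and were not analysed here. The other 31 all passed the minimum mean value, as did every one of the 15450 named genes tested.

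The libraries were polyadenylated RNA of cells sorted from dissociated retinas with an antibody to the surface protein Thy1 and a stain for dead cells. The AAV-Sox11 group (genotype AAV-So11 in the labels) had 3 libraries from eyes injected with an adeno-associated virus (AAV) for Sox11. The AAV-Control group had 3 libraries from eyes that received the control virus, labelled AAV-PLAP. All mice were 3 to 4 weeks old at the start, and in both groups the optic nerve had been crushed 3 days before the tissue was taken, after 2 weeks of virus. Each library pooled 3 retinas of 3 animals, so spread between libraries is spread between pools. Libraries with the same letter (A, B or C) were prepared on the same day. The sources used here do not give the promoter that drives either cargo, the mouse strain or the share of cells infected.

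Cholesterol is made from acetyl-CoA in the mevalonate arm, which ends at farnesyl diphosphate, and the sterol arm, which starts with squalene. When sterol in the endoplasmic reticulum is low, SREBP2, the protein of Srebf2, is cut and carried to the nucleus, where it activates most of these enzymes through sterol regulatory elements. When sterol is plentiful, oxysterols bind liver X receptors (LXR), which activate genes of sterol export such as Abca1 and Abcg1 and also genes of fatty acid synthesis and desaturation. In the retina, Muller glia and neurons both make sterol, and ganglion cells take up lipoproteins that glia release.

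Promoter sequences are shown for 3 members, since they carry letters of the elements named above. They are RefSeq windows (GRCm38.p6) from 250 bases before to 50 bases after the annotated start, and 25 of the 33 genes matched an entry. The first element searched, on both strands, was the sterol regulatory element TCACNCCAC, which occurred in 1.24% of all 32851 windows. The second was a direct repeat of the kind bound by LXR, GGTNA and GGTCA with any 5 bases between them, which occurred in 0.207% of them. Overlaps with other motifs were not examined. Capitals mark the matched letters, and each sequence reads 5′ to 3′ on the gene's own strand. The windows are chr4:53159846-53160145 (minus strand) for Abca1, chr11:120824498-120824797 (minus) for Fasn and chr13:119690101-119690400 (plus) for Hmgcs1.
Abca1: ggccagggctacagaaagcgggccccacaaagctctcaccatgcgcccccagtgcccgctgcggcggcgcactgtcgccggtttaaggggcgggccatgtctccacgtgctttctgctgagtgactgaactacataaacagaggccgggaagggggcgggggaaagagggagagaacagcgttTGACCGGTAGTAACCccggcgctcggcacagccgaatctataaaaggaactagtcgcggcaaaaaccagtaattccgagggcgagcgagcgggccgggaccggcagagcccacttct
Fasn: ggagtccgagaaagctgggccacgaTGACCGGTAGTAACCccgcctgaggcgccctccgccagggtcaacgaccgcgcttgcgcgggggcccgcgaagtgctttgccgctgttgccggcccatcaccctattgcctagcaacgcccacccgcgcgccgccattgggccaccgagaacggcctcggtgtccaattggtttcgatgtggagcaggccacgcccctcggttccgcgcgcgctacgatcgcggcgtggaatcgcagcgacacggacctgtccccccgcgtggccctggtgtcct
Hmgcs1: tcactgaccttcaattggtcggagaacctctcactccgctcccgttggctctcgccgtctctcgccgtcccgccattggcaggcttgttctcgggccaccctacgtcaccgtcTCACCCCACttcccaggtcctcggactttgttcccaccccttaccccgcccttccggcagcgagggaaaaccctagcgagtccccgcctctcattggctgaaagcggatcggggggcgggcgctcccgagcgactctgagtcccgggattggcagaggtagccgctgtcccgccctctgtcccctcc
The direct repeat was found in windows of Abca1, Fasn and Srebf1, on the strand opposite the gene in each. Its first base in reading direction of the gene lay 67 bases before the start in Abca1, 225 in Fasn and 182 in Srebf1. The letters in Abca1 and Fasn were identical, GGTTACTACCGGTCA on the other strand. The sterol regulatory element was found in Hmgcs1, 137 bases before the RefSeq start, and in no other member window. The measured transcript of Hmgcs1 starts a further 95 bases downstream of that start in GENCODE. These matches are letters in a window and show no binding.

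Although the labels name the sorted cells as ganglion cells, markers of other retinal cells were also present. Summed normalized values of 9 measured ganglion cell markers lay between 8224 and 10662 in AAV-Sox11 libraries and between 6786 and 10033 in controls. Those of 8 rod markers were 23600 to 43214 with AAV-Sox11 and 37813 to 59859 in controls. The sums of 6 bipolar cell markers (6197 to 7170, against 7382 to 10358 in controls) and of 4 of 6 microglia markers (672 to 961, against 1006 to 1954) did not overlap between groups, and Csf1r and Aif1 had no row. Most of the bipolar sum was Prkca (5695, 5807 and 5237, against 5726, 6413 and 5392 in controls), whose groups overlapped. Taken singly, Otx2 of the bipolar markers and P2ry12 and Tmem119 of the microglia markers were lower with groups apart, beside 14.4% of all genes. Muller glia markers (7 of 8, without Rlbp1) summed to 43752 to 51892 with AAV-Sox11 and 32800 to 56872 in controls, mostly from Dkk3. None of the 9 ganglion cell markers passed in limma (0 of 9), Pou4f3 had no row, and the median log2 fold change of the 9 was 0.59. Pou4f2 (2.77-fold), Slc17a6 (1.98-fold) and Nefh (1.70-fold) were higher in the mean with groups apart, beside 16.2% of all genes. Pou4f2 and Nefh passed with the same-day replicate block (limma adjusted p = 0.0383 and 0.0381), beside 4.77% of all genes. Rbpms averaged 41.8 ± 1.41 with AAV-Sox11 and 42.4 ± 12.9 in controls (SD, n = 3), and Nefl and Nefm had log2 fold changes of -0.33 and -0.39. The part of ganglion cell content in the results below was not tested. A difference in such bulk samples can come from the number of cells of a type or from RNA per cell, which cannot be told apart. Sox11 itself averaged 232.2 ± 52.1 with AAV-Sox11 and 114.1 ± 15.6 in controls (SD, n = 3), higher in each same-day pair, with a limma adjusted p of 0.0504. Deposited whole-number values of a library summed to between 10747985 and 11546892. A direction of spread within groups was missing from these values, as set out in the description of the processing, so that p-values may be too small.

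**Figure D1:**
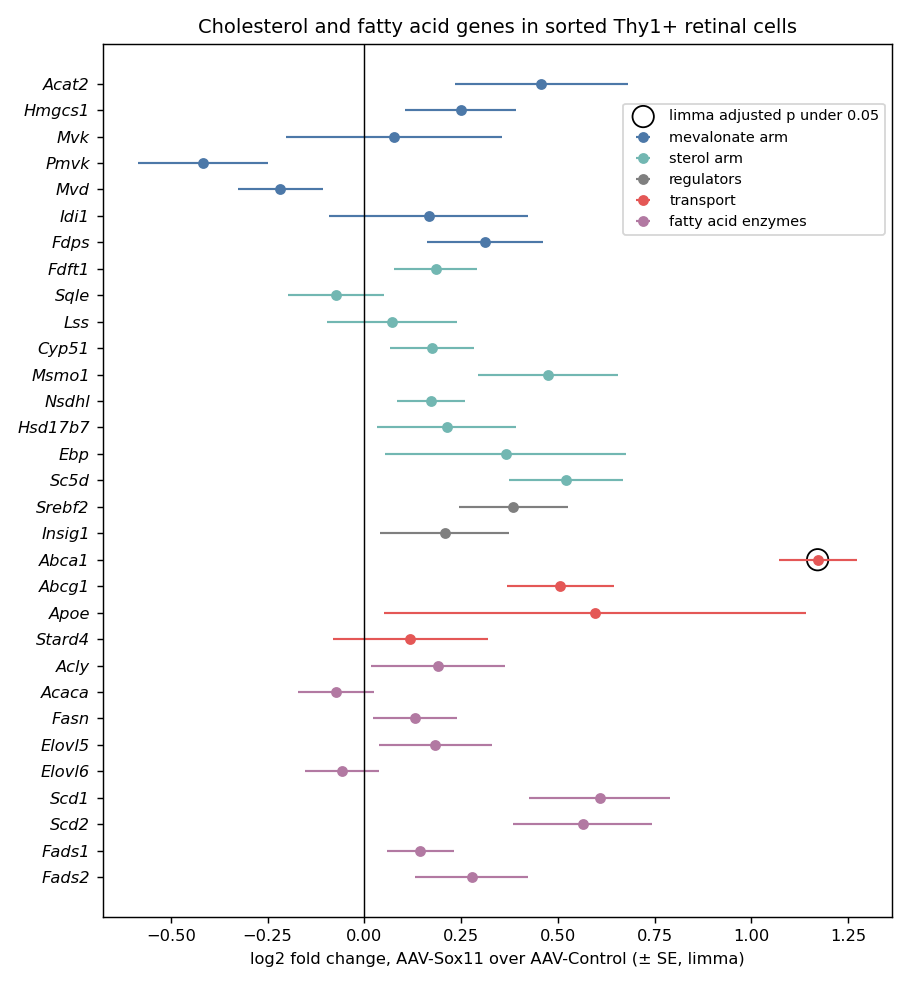
Log2 fold change of AAV-Sox11 over AAV-Control (x axis, with SE from limma) for the 31 genes with values, coloured by role. Abca1, at 1.17 ± 0.10, is the gene past an adjusted p of 0.05, and 26 of the 31 lie to the right of 0.

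Abca1 was the member that passed the test. It encodes the transporter that moves cholesterol and phospholipid out of the cell onto apolipoproteins. AAV-Sox11 libraries A, B and C had normalized values of 6334, 6141 and 5343, against 2381, 2846 and 2682 in control libraries A, B and C. The lowest AAV-Sox11 library lay far above the highest control. Abca1 rose 2.25-fold (log2 fold change 1.17 ± 0.10, SE, limma adjusted p = 0.0124), averaging 5940 ± 525 with AAV-Sox11 and 2636 ± 236 in controls (SD, n = 3). The same-day differences were 1.41, 1.11 and 0.99 on the log2 scale for A, B and C. Its values rest on 1 protein-coding transcript of 50 exons, ENSMUST00000030010, on chromosome 4 (53030787 to 53159895, minus strand, GRCm38), which shares 0 of its 50-base windows with transcripts of other genes. The authors' deposited table gives it a log2 fold change of 1.17 (false discovery rate 6.76e-13). Over the alternatives tried, the log2 fold change ran from 1.05 to 1.28, and the limma adjusted p missed 0.05 without AAV-Sox11 A (0.063), B (0.112) or C (0.0683). With the index of rod markers as a covariate the value was 1.28 (limma adjusted p = 0.0815), and with that of Muller glia markers 1.16 (0.0273). With the missing direction as a covariate the value was 1.17 (limma adjusted p = 0.058), and with an index of sex-linked genes 1.28 (0.111). The part of microglia or bipolar cells in the Abca1 difference was not tested.

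Abca1 was the 1 of 31 members called, and 0 members were called lower. Across all 15450 genes, 2.32% were called in either direction, 0.796% as higher and 1.52% as lower, so the share of members called was near the share of all genes. At an unadjusted p under 0.05, 7 members were higher and 1 was lower (25.8% of 31), beside 24.3% of all genes in either direction, 12.6% as higher. With the same-day replicate block 2 members passed, Abca1 and Abcg1, beside 4.77% of all genes. In the authors' deposited table, 4 of the 49 member rows had a false discovery rate under 0.05, beside 6.83% of its 26334 named rows. Positive fold changes were found in 26 of 31 members, and in 53.8% of all genes. The median log2 fold change was 0.19 over the members and 0.032 over all genes. Under median-of-ratios, upper-quartile and library-size scaling, which shift all genes alike, the members' medians were 0.17, 0.14 and 0.13, and those of all genes 0.0067, -0.016 and -0.032. With these scalings 26 members were positive, beside 50.7%, 47.9% and 46.0% of all genes.

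Of the other 3 transport genes, Abcg1 lay closest to the threshold. It encodes a transporter that exports cholesterol to high-density lipoprotein. Abcg1 had 1553, 1631 and 1327 with AAV-Sox11 and 1071, 1233 and 889 in controls. The groups did not overlap, and the mean was 1.42-fold higher (log2 fold change 0.51 ± 0.14, SE, limma adjusted p = 0.0864, and 0.0345 with the same-day replicate block). Its rows differed. The protein-coding row, ENSMUST00000024829, averaged 1459 with AAV-Sox11 and 1008 in controls, whereas a row with a retained intron, ENSMUST00000139013, averaged 44.7 with AAV-Sox11 and 56.1 in controls. In the authors' deposited table the log2 fold changes of these rows were 0.53 (false discovery rate 0.031) and -0.33 (0.555).

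Apoe, an apolipoprotein made by retinal glia, varied most between libraries of a group. It had 250, 158 and 88.5 with AAV-Sox11 and 225, 63.7 and 69.5 in controls, so that library A was highest in both groups. The limma adjusted p was 0.53, with a log2 fold change of 0.60 ± 0.55 (SE). Control A also stood highest in the index of Muller glia markers, at 0.88, against -0.18 and -0.47 in controls B and C and 0.08, 0.01 and -0.32 with AAV-Sox11. The part of glial transcripts in the spread of Apoe was not tested. Stard4, which carries sterol between membranes, had 550, 755 and 986 with AAV-Sox11 and 650, 756 and 651 in controls, with overlapping groups (adjusted p = 0.745, limma).

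**Figure D2:**
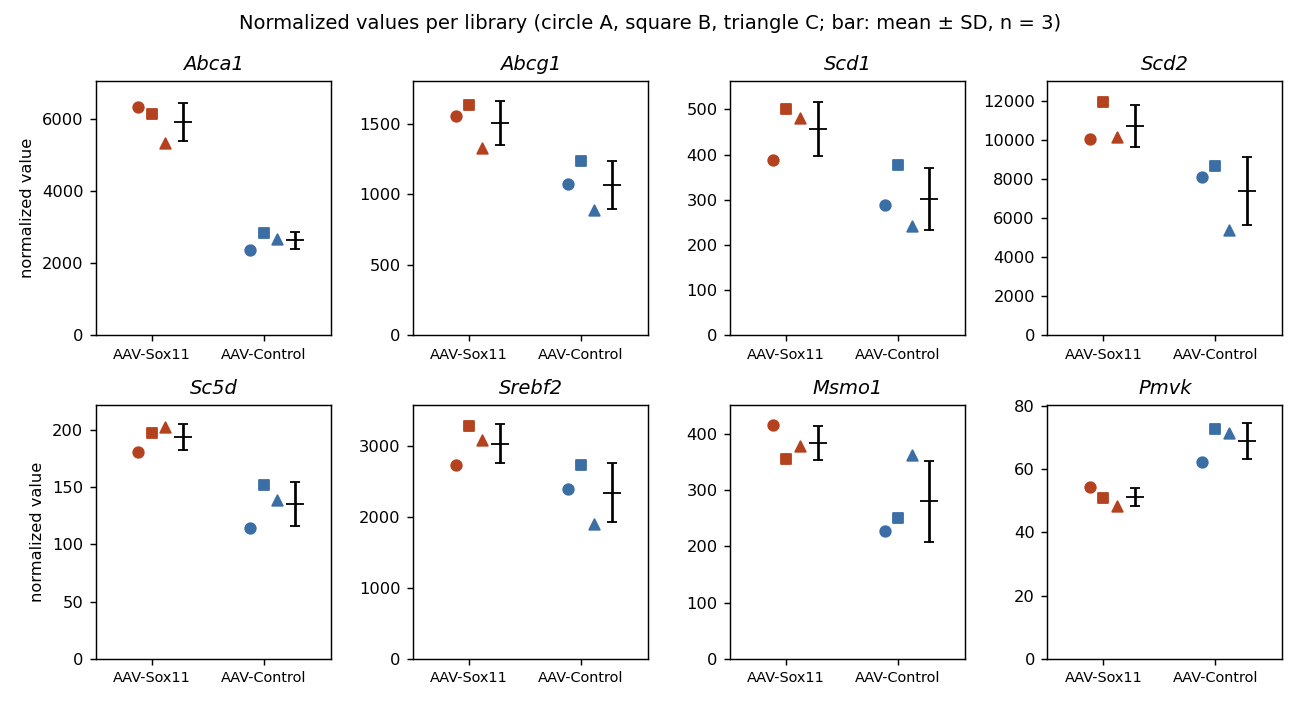
Normalized value (y axis, starting at 0) in each library for the 8 genes with an unadjusted limma p under 0.05, AAV-Sox11 left and AAV-Control right. Symbols are libraries A, B and C, and bars give the mean and SD of 3 libraries. Groups are apart in every panel other than that of Msmo1, where control C (363) reaches above AAV-Sox11 B (356).

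Both measured regulators had higher means with AAV-Sox11, and neither passed. Srebf2, which encodes the sterol-sensing transcription factor SREBP2, had 2738, 3280 and 3083 with AAV-Sox11 and 2397, 2734 and 1899 in controls. The groups were barely apart, AAV-Sox11 A (2738) lying just above control B (2734), and the log2 fold change was 0.38 ± 0.14 (SE, limma adjusted p = 0.154). Insig1, which retains SREBP in the endoplasmic reticulum and is itself an SREBP target, had 1424, 1678 and 2129 with AAV-Sox11 and 1262, 1560 and 1678 in controls. Within each same-day pair Insig1 was higher with AAV-Sox11, by 0.17, 0.11 and 0.34 on the log2 scale, while the groups overlapped (adjusted p = 0.472, limma).

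None of the 16 measured enzymes of cholesterol synthesis passed in limma (0 of 16). At an unadjusted p under 0.05 there were 3 of 16, beside 24.3% of all genes. Their median log2 fold change was 0.18, and 13 of 16 were positive, beside 53.8% of all genes. Medians within the same-day pairs A, B and C were 0.20, 0.10 and 0.22. Both arms had like medians, 0.17 for the mevalonate arm and 0.18 for the sterol arm.

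In the mevalonate arm, 5 of 7 enzymes had positive log2 fold changes, none past the test. Hmgcs1, the synthase that makes HMG-CoA, had 2018, 2453 and 2979 with AAV-Sox11 and 1890, 2195 and 2118 in controls (log2 fold change 0.25 ± 0.14, SE, adjusted p = 0.324, limma). It carries the sterol regulatory element printed above. Acat2, the cytosolic thiolase, averaged 277.1 ± 59.8 with AAV-Sox11 and 202.1 ± 49.3 in controls, and Fdps, farnesyl diphosphate synthase, 442.3 ± 39.1 with AAV-Sox11 and 359.3 ± 66.7 in controls (SD, n = 3). Both were higher in all 3 same-day pairs, with limma adjusted p-values of 0.258 and 0.251. Idi1, the isomerase, had a log2 fold change of 0.17 ± 0.26 and Mvk, mevalonate kinase, 0.077 ± 0.28 (SE).

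Pmvk and Mvd, which act one after the other on phosphorylated mevalonate, lay on the other side of 0. Pmvk had 54.2, 50.9 and 48.3 with AAV-Sox11 and 62.1, 72.6 and 71.4 in controls. Its groups did not overlap, the sole member with every AAV-Sox11 library below every control, and the log2 fold change was -0.42 ± 0.17 (SE, limma adjusted p = 0.181). Both rows of Pmvk were protein-coding and both had lower means with AAV-Sox11 (32.2 and 18.9, against 39.8 and 28.9 in controls). Mvd, the decarboxylase, averaged 302.8 ± 22.7 with AAV-Sox11 and 352.1 ± 24.7 in controls (SD, n = 3), lower in each same-day pair (log2 fold change -0.22 ± 0.11, SE, limma adjusted p = 0.27).

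In the sterol arm, Sc5d and Msmo1 had the largest differences. Sc5d, the desaturase that acts near the end of the pathway, had 180, 197 and 202 with AAV-Sox11 and 115, 152 and 139 in controls. The groups did not overlap, and the log2 fold change was 0.52 ± 0.15 (SE, limma adjusted p = 0.0929). Msmo1, a methyl sterol oxidase, had 416, 356 and 378 with AAV-Sox11 and 228, 251 and 363 in controls. The groups overlapped through control C, and the limma adjusted p of 0.164 became 0.0447 without that library, with a log2 fold change of 0.67. Without control A it was 0.34 (limma adjusted p = 0.3), and without both A libraries 0.28 (0.47). Nsdhl, a sterol dehydrogenase, had 577, 607 and 649 with AAV-Sox11 and 521, 544 and 560 in controls, a small difference of 1.13-fold with groups apart (adjusted p = 0.278, limma).

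The remaining enzymes of the sterol arm lay between log2 fold changes of -0.073 and 0.36. Fdft1, squalene synthase, averaged 1162 ± 133 with AAV-Sox11 and 1020 ± 70.9 in controls, and Cyp51, lanosterol demethylase, 1447 ± 102 with AAV-Sox11 and 1286 ± 155 in controls (SD, n = 3). Sqle, squalene epoxidase, a rate-limiting step, averaged 347.8 ± 22.9 with AAV-Sox11 and 367.5 ± 47.9 in controls. The limma adjusted p-values of Fdft1, Cyp51 and Sqle were 0.331, 0.362 and 0.743, and the groups of all 3 overlapped. Lss, lanosterol synthase (0.071 ± 0.17), Hsd17b7, a sterol ketoreductase (0.21 ± 0.18), and Ebp, a sterol isomerase (0.36 ± 0.31, log2 fold change and SE), overlapped between groups. Ebp was low, with 15.6, 13.5 and 16.1 with AAV-Sox11 and 8.73, 9.80 and 17.4 in controls.

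**Figure D3:**
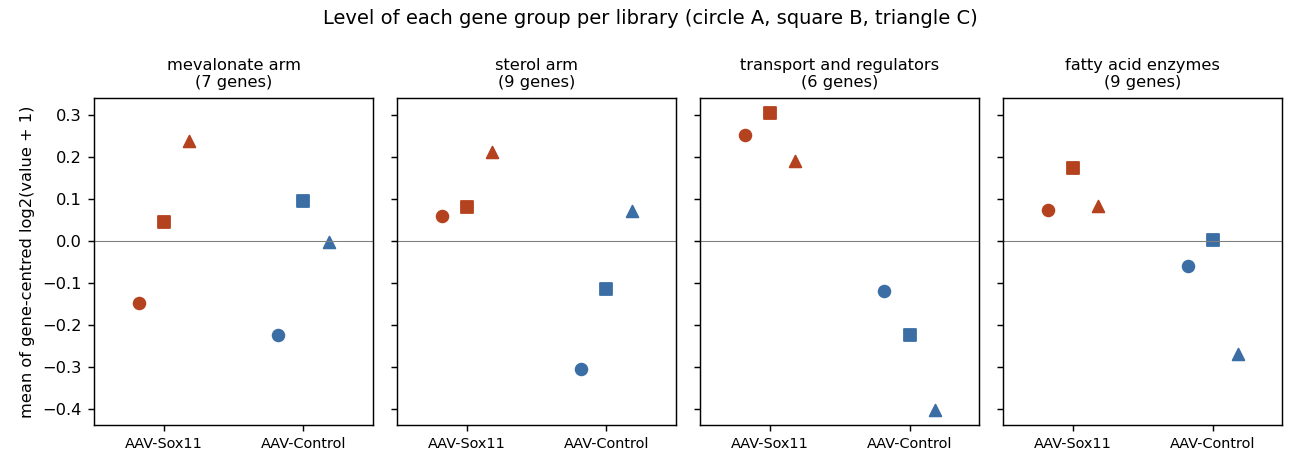
Mean over the genes of each group of log2(value + 1) after each gene's own mean over the 6 libraries was subtracted (y axis), by library, AAV-Sox11 left and AAV-Control right. Transport and regulator genes are apart by the widest gap, and both arms of cholesterol synthesis overlap between the groups.

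The libraries of the groups overlapped in the cholesterol enzymes. Their mean centred log2 value was -0.032, 0.065 and 0.22 in AAV-Sox11 A, B and C and -0.27, -0.023 and 0.038 in controls A, B and C. Library A was the lowest and library C the highest in both groups. The fatty acid enzymes had another pattern, with 0.073, 0.17 and 0.083 in AAV-Sox11 libraries and -0.060, 0.0014 and -0.27 in controls, so that control C was lowest. Transport and regulator genes had 0.25, 0.30 and 0.19 with AAV-Sox11 and -0.12, -0.22 and -0.40 in controls. No test was made of these group means, since the genes were chosen with results of these data known.

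None of the 9 fatty acid enzymes passed in limma (0 of 9). At an unadjusted p under 0.05 there were 2 of 9, beside 24.3% of all genes. Positive fold changes were found in 7 of 9, beside 53.8% of all genes, with a median of 0.18. Groups did not overlap for the 4 desaturases of the list, beside 16.2% of all genes, and overlapped for the other 5 enzymes. Scd1 and Scd2 encode stearoyl-CoA desaturases, which place the first double bond in saturated fatty acids; Scd2 is the form known from brain. Scd2 had 10067, 11951 and 10140 with AAV-Sox11 and 8117, 8657 and 5373 in controls. Scd1 had 388, 501 and 482 with AAV-Sox11 and 289, 377 and 241 in controls. In both genes all AAV-Sox11 libraries lay above all controls and control C was the lowest of all.

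Scd1 was 1.52-fold higher in the mean (log2 fold change 0.61 ± 0.18, SE) and Scd2 1.48-fold (0.56 ± 0.18), with limma adjusted p-values of 0.104 and 0.121. Without control B the value of Scd1 was 0.78 (limma adjusted p = 0.0482), and without control C it was 0.46 (0.157). Without control C that of Scd2 was 0.35 (0.104). With an index of sex-linked genes (Y-linked genes minus Xist) as a covariate, Scd1 had 0.22 (0.573) and Scd2 0.19 (0.662). This index was lower in every AAV-Sox11 library (-6.86, -8.11 and -8.45) than in every control (-6.82, -6.79 and -5.26). The index thus went with the group, and the part of sex in the results was not tested. The authors' deposited table gives Scd2 a log2 fold change of 0.54 (false discovery rate 0.0376). The transcripts of these neighbours on chromosome 19 share 4.66% (Scd1) and 4.01% (Scd2) of their 50-base windows with other genes, chiefly with each other and Scd3. The front-end desaturases Fads1 and Fads2, which make polyunsaturated fatty acids, also had groups apart, by narrow gaps. For Fads2, AAV-Sox11 A (660) lay just above control B (657), and for Fads1, AAV-Sox11 A (2826) lay above control A (2775). Fads1 averaged 2894 ± 96.8 with AAV-Sox11 and 2625 ± 233 in controls, and Fads2 709.7 ± 52.9 with AAV-Sox11 and 591.5 ± 107 in controls (SD, n = 3), with limma adjusted p-values of 0.344 and 0.291. These 4 genes were higher with AAV-Sox11 in each same-day pair. The groups overlapped for 3 other genes of the desaturase families, named after their values were seen. Scd3 had a log2 fold change of -0.27 ± 0.19, Fads3 0.38 ± 0.21 and Fads6 0.18 ± 0.13 (SE), and they were higher in 1, 2 and 2 of 3 same-day pairs.

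None of the enzymes that supply and build palmitate passed. Fasn, fatty acid synthase, had 4705, 5464 and 5489 with AAV-Sox11 and 4821, 5297 and 4207 in controls (log2 fold change 0.13 ± 0.11, SE, adjusted p = 0.487, limma). Its promoter window holds the same direct repeat as that of Abca1, whose log2 fold change was 1.17; the difference between these genes was not tested. Acaca, acetyl-CoA carboxylase, averaged 450 ± 14.8 with AAV-Sox11 and 474.6 ± 40.9 in controls, and Elovl6, which extends palmitate, 4265 ± 184 with AAV-Sox11 and 4454 ± 496 in controls (SD, n = 3). Acly, ATP citrate lyase, and Elovl5, an elongase of polyunsaturated fatty acids, had log2 fold changes of 0.19 ± 0.17 and 0.18 ± 0.15 (SE). The rows of Acly differed in direction. Its protein-coding row had 44.8, 36.3 and 32.2 with AAV-Sox11 and 25.2, 23.5 and 28.9 in controls, with groups apart, and its processed transcript averaged 18.8 with AAV-Sox11 and 23.6 in controls. With protein-coding rows only, the log2 fold change of Acly was 0.52 (limma adjusted p = 0.19).

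In all, 9 of the 31 members (29.0%) had every AAV-Sox11 library above every control, beside 16.2% of all genes. They were Abca1, Abcg1, Srebf2, Scd1, Scd2, Fads1, Fads2, Sc5d and Nsdhl. Pmvk was the 1 member with every AAV-Sox11 library below, beside 14.4% of all genes. By role, these 9 comprised 4 of 9 fatty acid enzymes, 3 of 6 transport and regulator genes and 2 of 16 cholesterol enzymes.

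**Figure D4:**
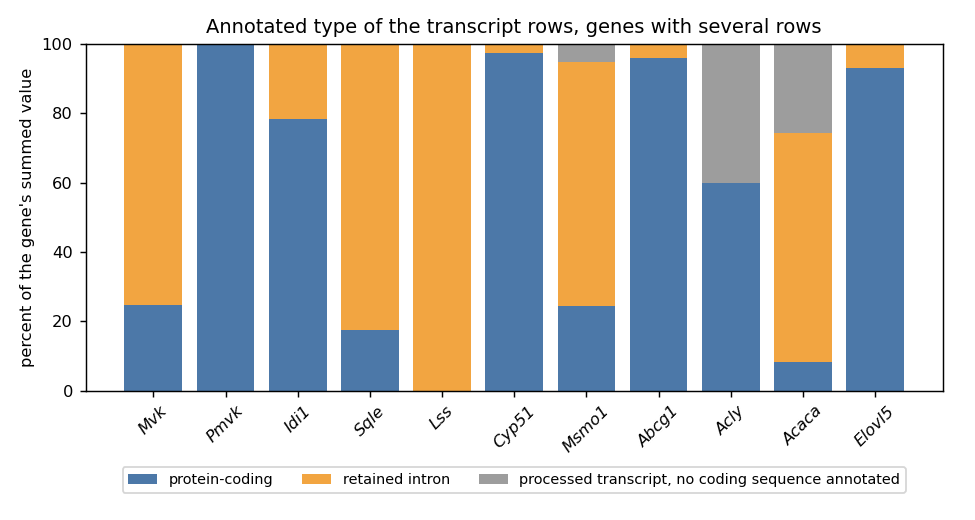
Share of each gene's summed value (y axis, percent) in rows annotated as protein-coding, with a retained intron, or as processed transcripts, for the 11 genes with several rows. Lss has no protein-coding row, and Acaca, Sqle, Msmo1 and Mvk have most of their value in other rows.

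Several enzymes had most of their value in rows that are not annotated as protein-coding. Of 49 rows, GENCODE M21 annotates 33 as protein-coding, 13 as retaining an intron and 3 as processed transcripts. For 20 members there was 1 row, and for 5 under 50% of the summed value lay in protein-coding rows. These were Lss (0%), Acaca (8.14%), Sqle (17.6%), Msmo1 (24.4%) and Mvk (24.6%). The sources used here do not say how reads were divided among transcripts of a gene. For Msmo1, a row annotated as a processed transcript, ENSMUST00000140861, had 26.1, 23.9 and 19.1 with AAV-Sox11 and 9.7, 10.8 and 11.6 in controls; in the authors' deposited table its false discovery rate was 0.0297.

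Sequence shared with other genes limits a further group of values. Fdps shares 82.0% of its 50-base windows with other transcripts, chiefly Gm43738, Gm3571 and Gm5873, Acat2 45.9% with Acat3 and Tcp1, and Fdft1 39.8% with Ctsb and Gm6781. The coding row of Acaca shares 52.6%, mostly with Gm5182, both rows of Idi1 30.5% and 42.4%, and Hmgcs1 14.5% with Gm48342 on the opposite strand. Fdft1 and Cyp51 overlap Ctsb and Akap9 on opposite strands. The sources used here do not say whether counting used strand, so values of these genes are uncertain to that extent.

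A wider list of 71 genes of these pathways, chosen by role, had values for 54. Of these, 1 rose and 0 fell, beside 2.32% of all genes called. Positive fold changes were found in 38 of 54, beside 53.8% of all genes, and the median log2 fold change was 0.17, beside 0.032 over all genes. Groups were apart as higher in 15 of 54 (27.8%) and as lower in 4 (7.41%), beside 16.2% and 14.4% of all genes. The gene that rose was Lbr, which encodes the lamin B receptor, a protein of the inner nuclear membrane that is also a sterol reductase. Lbr had 1514, 1544 and 1343 with AAV-Sox11 and 1016, 1060 and 886 in controls, with groups apart and a 1.49-fold difference (log2 fold change 0.57 ± 0.10, SE, limma adjusted p = 0.0382). It missed the threshold without control A (limma adjusted p = 0.0727) and without AAV-Sox11 A (0.121), B (0.221) or C (0.0895), with log2 fold changes of 0.53 to 0.63. It also missed it with no mean-variance trend (0.0726), without the libraries of pair A, B or C (0.163, 0.205 and 0.104), and with the removed direction (0.111), the sex index (0.198) or the rod index (0.0826) as a covariate. With the same-day replicate block, Lbr, Thrsp and Fabp5 were among those that passed, at limma adjusted p-values of 0.0285, 0.0381 and 0.0497, beside 4.77% of all genes.

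Among the other genes with the lowest p-values, Thrsp, a nuclear protein linked to lipogenesis in liver, was lower, with 412, 440 and 533 with AAV-Sox11 and 725, 645 and 740 in controls (log2 fold change -0.61 ± 0.12, SE, limma adjusted p = 0.0516). Fabp5, a fatty acid carrier, averaged 98.9 ± 9.99 with AAV-Sox11 and 51.5 ± 15.2 in controls (SD, n = 3, limma adjusted p = 0.0682). Ppargc1a, a coactivator of mitochondrial genes, had a log2 fold change of -0.42 ± 0.12 (SE). In sterol control, Scap, which escorts SREBP to the Golgi, and Rnf139, a ubiquitin ligase of the endoplasmic reticulum, had 0.28 ± 0.08 and 0.29 ± 0.07. In both, every AAV-Sox11 library lay above every control, beside 16.2% of all genes. Elovl7, an elongase, had 0.62 ± 0.18 and Mcat, of mitochondrial fatty acid synthesis, 0.41 ± 0.13 (SE). The limma adjusted p-values of these 5 genes lay between 0.0726 and 0.111. The LXR genes Nr1h2 and Nr1h3 had no row and were not analysed here.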

How the data were processed

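CASAVA 1.8.2, edgeR (without a version) and the build mm10 stand in the submitters' processing notes, and the sources used here name no aligner, counter, strand setting or annotation. A single table of 26691 transcript rows was deposited, in which no value is 0. The whole-number columns the authors deposited were treated as a score, adjusted before deposit, since after centring 1 of 5 possible directions across the libraries had only rounding spread (SD 9.48e-05 natural log units, against 0.017 from read counting), so a component had been removed; AAV-Sox11 B carried 57.7% of its squared weight. The deposited normalized columns, a signal, equal the whole numbers times 1 factor per library (0.965 to 1.04). Where log2 fold changes or p-values deposited by the authors are given, the text says so. Titles spell the control plupcrush and columns plapcrush, both with genotype AAV-PLAP.

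Normalized values of rows with the same gene name were summed to 15450 genes (357 unnamed rows, 0.422% to 0.517% of each library, were left out), and limma-trend 3.58.1 in R 4.3.3 was fitted to log2(value + 1), with Benjamini-Hochberg adjustment over all genes, threshold 0.05 and no covariate. Fold changes understate changes of low genes. The script was tested on simulated data with independent spread in every library, so that test does not cover the missing direction. Precision rests on 3 libraries a group; deposited totals stand for depth only approximately. Every member was named, and of the wider list those called and the 8 of lowest p. The members and lists were chosen with earlier results of these data known. Same-letter libraries pair by the series' design text (same day). Their deviations from the group means correlated at 0.0025, 0.79 and 0.24 for A, B and C. Those of AAV-Sox11 B and control C correlated at -0.876. The missing direction ties AAV-Sox11 B to controls B and C (weights 0.76, -0.22 and 0.25). The correlations of AAV-Sox11 B therefore do not measure a same-day effect. Alternatives covered scaling, pseudocount, filter, variance, summing, covariates and left-out libraries. Coordinates and row types come from GENCODE M21 (GRCm38). Some genes of the wider list are not reported here by name.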

Additional observations from a re-analysis of the deposited data

How the results depend on the processing

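Abca1 kept its direction in all 26 alternatives and passed in 17. Several of these could hardly change it. With no filter the fit was the same, since every gene passed the filter. Abca1 has 1 row, so the choice of rows left its value at 1.17, and its values lie far above the pseudocounts. It did not pass with the removed direction as a covariate (log2 fold change 1.17, limma adjusted p = 0.058), the sex index (1.28, 0.111) or the rod index (1.28, 0.0815), nor in 6 of 9 fits with left-out libraries (1.05 to 1.26). Transport and regulator genes called numbered 0 with those 3 covariates, 2 with the replicate block or in the authors' deposited comparison, and 0 to 1 with libraries left out. The authors' comparison was counted here at the most abundant transcript row of each gene, which leaves out the processed transcript of Msmo1 given above. Over all named rows, the authors' comparison has 513 higher and 1286 lower at a false discovery rate under 0.05. Cholesterol enzymes called numbered 0 to 1 and fatty acid enzymes 0 to 1 with libraries left out, and 1 fatty acid enzyme in the authors' comparison. Other pathway genes called numbered 2 under the 3 other scalings, robust variance, the Muller glia index and the authors' comparison, 4 with the replicate block, 0 with no mean-variance trend or those 3 covariates, and 0 to 3 with libraries left out. Over all genes, higher and lower calls numbered 323 and 414 with the replicate block, 0 and 0 with each of those 3 covariates in limma (2582, 2702 and 3170 at an unadjusted p under 0.05), 248 higher with the Muller glia index, 57 higher with no trend, 435 and 739 in the authors' comparison, and 0 to 339 and 0 to 406 with libraries left out. Lower calls numbered 355 and 356 under upper-quartile and library-size scaling, where higher calls numbered 100 and 103, so 22.0% and 22.4% of calls were higher (34.4% as reported), and 117 with protein-coding rows only, an alternative chosen after seeing the data in which fewer genes were tested. The median of cholesterol enzymes was 0.037 with the rod index and 0.11 to 0.29 with libraries left out, and that of fatty acid enzymes 0.069 with the sex index and 0.086 to 0.21 with libraries left out (0.086 without control C). None of the genes that changed sign was called. With the rod index these were Mvk (-0.33), Idi1 (-0.043), Lss (-0.19), Hsd17b7 (-0.024), Insig1 (-0.10), Stard4 (-0.20) and Elovl6 (0.021). With the sex index they were Mvk (-0.37), Sqle (0.17), Stard4 (-0.28), Acaca (0.069), Fasn (-0.11) and Fads2 (-0.038), and with protein-coding rows Mvk (-1.17) and Sqle (0.024). With libraries left out the ranges were -0.23 to 0.35 for Mvk, -0.13 to 0.32 for Idi1, -0.17 to 0.057 for Sqle, -0.020 to 0.25 for Lss, -0.12 to 0.33 for Stard4, -0.16 to 0.0065 for Acaca and -0.13 to 0.026 for Elovl6. The cause of these changes was not tested.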
